A study of Mus musculus with 55 samples.

Results

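Natural killer (NK) cell receptors and cytotoxic granule genes were followed through 10 cell populations sorted from mouse liver, in normal animals and in animals after partial hepatectomy (PH). The set held 10 genes of the 24478 gene symbols in the table: the receptor genes Klra8, Klra21, Klrb1c, Klrk1, Klrd1 and Ncr1, the transcription factor gene Eomes, and the granule genes Prf1, Gzma and Gzmb. They were picked by symbol, with 1 row kept for each. They had been chosen because their levels in the blood sort differed between normal and PH mice, so their values in blood are given as a description and carry no test.

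The 55 RNA-seq libraries were made from total RNA of sorted cells. Each library belongs to 1 sorted population, and all mice were labelled as strain C57B/L6 with liver as the tissue. The treatment was either none (normal, 27 libraries) or partial hepatectomy (PH, 28 libraries), with no time after surgery, age or sex in the labels used here. The populations, with the number of normal and PH libraries, were the blood cell sort (2 and 2), Kupffer cells (KC; 2 and 3), liver sinusoidal endothelial cells (LSEC; 3 and 5), endothelial cells (EC; 2 and 3), Thy1 cells (2 and 2), hepatic stellate cells (HSC; 2 and 3), clonal biliary epithelial cells (cBEC; 4 and 2), biliary epithelial cells (BEC; 4 and 2), non progenitor ducts (NPD; 2 and 2) and hepatocytes (HC; 4 and 4). The labels do not say whether replicates came from separate mice, so a p-value covers only the spread between these libraries. Levels are in FPKM, fragment counts scaled for transcript length and library size. FPKM summed to 773080 to 804558 in the 4 blood libraries and to 624726 to 1203197 over all 55, and the read depth is unknown.

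NK cells are lymphocytes that kill infected or transformed cells without antigen receptors. Activating and inhibitory receptors on their surface are weighed against each other, and a target that tips the balance receives granules holding perforin and granzymes. The liver sinusoids are known for a rich NK population next to type 1 innate lymphoid cells, natural killer T cells and Kupffer cells. Most of these genes are also used by T cells, so none of them alone defines an NK cell.

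Klra8 encodes the activating receptor Ly49H, which binds a viral ligand. Klrb1c encodes the C-type lectin carrying the NK cell antigen used to mark these cells in this strain. Klrk1 encodes NKG2D, an activating receptor for stress-induced ligands, and Klrd1 encodes CD94, which pairs with NKG2 chains. Ncr1 encodes the natural cytotoxicity receptor of the mouse. Eomes is a T-box factor of conventional NK cells and memory CD8 T cells. Prf1 encodes the pore-forming perforin, and Gzma and Gzmb encode granule serine proteases.

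In the mm9 build used by the table, 5 of the 10 genes lie in the NK gene complex on chromosome 6. They are Klrb1c (chr6:128728503-128738659, minus strand), Klrd1 (chr6:129541829-129548793, plus strand), Klrk1 (chr6:129560341-129572701, minus strand), Klra21 (chr6:130032616-130079897, minus strand) and Klra8 (chr6:130065245-130079853, minus strand). The others are Ncr1 (chr7:4289326-4296766, plus strand), Eomes (chr9:118387307-118395250, plus strand), Prf1 (chr10:60760584-60767011, plus strand), Gzma (chr13:113884035-113891189, minus strand) and Gzmb (chr14:56877695-56881097, minus strand). The Klra8 interval, 14609 bases long, lies wholly inside the 47282 bases of Klra21 on the same strand. Reads of the pair may therefore be shared or split, and the value of either gene is uncertain.

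The promoters of 4 of these genes are shown because T-box, Runx and Ets factors are known regulators of NK genes and because these genes span the receptor and granule classes. Each is the 250 bases before the RefSeq start site in GRCm38.p6. Capitals mark the letters TGTGGT (Runx core), AGGTGT (T-box site) or AGGAAG (Ets core), or the reverse complement of one of them. The windows are chr6:129623865-129624114 on the minus strand for Klrk1, chr7:4337465-4337714 on the plus strand for Ncr1 (the first of 2 listed start sites), chr10:61297586-61297835 on the plus strand for Prf1 and chr14:56262335-56262584 on the minus strand for Gzmb.
Klrk1: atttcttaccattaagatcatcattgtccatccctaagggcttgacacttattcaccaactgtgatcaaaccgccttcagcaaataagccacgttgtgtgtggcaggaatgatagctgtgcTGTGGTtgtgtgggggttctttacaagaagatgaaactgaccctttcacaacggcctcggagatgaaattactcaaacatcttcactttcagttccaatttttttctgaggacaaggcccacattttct
Ncr1: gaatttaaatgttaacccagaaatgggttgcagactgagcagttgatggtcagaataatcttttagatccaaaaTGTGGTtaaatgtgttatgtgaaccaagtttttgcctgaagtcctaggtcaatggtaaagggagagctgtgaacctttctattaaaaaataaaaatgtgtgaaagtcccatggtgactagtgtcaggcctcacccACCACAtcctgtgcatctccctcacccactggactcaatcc
Prf1: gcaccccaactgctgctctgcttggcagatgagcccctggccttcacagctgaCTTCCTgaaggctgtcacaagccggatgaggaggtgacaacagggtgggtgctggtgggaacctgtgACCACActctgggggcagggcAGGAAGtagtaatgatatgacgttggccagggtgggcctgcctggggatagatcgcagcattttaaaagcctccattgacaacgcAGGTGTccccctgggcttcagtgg
Gzmb: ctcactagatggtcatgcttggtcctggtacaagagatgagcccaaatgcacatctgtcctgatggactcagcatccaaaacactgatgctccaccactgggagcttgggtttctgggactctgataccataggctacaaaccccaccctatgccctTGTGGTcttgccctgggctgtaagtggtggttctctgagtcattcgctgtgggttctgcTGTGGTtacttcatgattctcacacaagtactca

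A RefSeq window was found for 8 of the 10 genes, all but Klrd1 and Klra21. The Runx core letters stood in the windows of 6 of the 8 (Klrb1c, Klrk1, Ncr1, Prf1, Gzma and Gzmb), and in 14.05% of the 32851 windows of the same length in the table. The T-box letters were in 2 of the 8 (Prf1 and Gzma) against 11.8% of all windows, and the Ets letters in 2 of the 8 (Klrb1c and Prf1) against 29.5%. In the Klrb1c window 2 of the Ets matches overlap each other, while matches of different motifs overlap nowhere in the printed windows. These are letter matches in a short window, and no match says only that the letters are not there. In blood, described next, Klrk1 and Gzmb had the smallest and the largest difference on the log2(FPKM + 1) scale among the 4 genes printed here.

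In normal blood libraries all 10 genes were present and most were abundant. Gzma was at 940 and 1004 FPKM in the normal libraries and at 13.2 and 26.4 FPKM in the PH libraries. Gzmb was at 594 and 733 FPKM in normal blood and at 5.80 and 16.0 FPKM in PH blood. Both granzymes were thus among the abundant transcripts of the normal sort, and for each the higher PH value was far under the lower normal one. Prf1 was at 99.7 and 129 FPKM against 1.70 and 3.40 FPKM. The group means of normal over PH gave ratios of 49.0 for Gzma, 61.0 for Gzmb and 44.9 for Prf1.

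The proportion between the granule genes moved less than their levels. Prf1 divided by Gzma was 0.106 and 0.129 in the normal libraries and 0.129 in both PH libraries. Gzmb divided by Gzma was 0.632 and 0.731 in normal blood and 0.438 and 0.605 in PH blood, so the PH values lay below the normal ones for this pair.

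Among the receptors, Klrd1 was at 311 and 260 FPKM in normal blood and at 7.72 and 9.39 FPKM in PH blood. Klrb1c was at 185 and 224 FPKM against 4.20 and 7.91 FPKM. Ncr1 was at 195 and 212 FPKM against 2.31 and 4.66 FPKM. These 3 receptors had like levels in normal blood, and in PH blood all 3 stood under 10 FPKM. Their normal over PH ratios were 33.4 for Klrd1, 33.8 for Klrb1c and 58.3 for Ncr1. Klrk1 was at 121 and 141 FPKM in normal blood and at 3.80 and 10.0 FPKM in PH blood, a ratio of 19.0, which was the smallest of the 10.

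Klra8 was at 35.0 and 40.9 FPKM in normal blood and at 0.502 and 0.289 FPKM in PH blood. Klra21 was at 22.0 and 26.8 FPKM against 0.196 and 0.139 FPKM. These 2 had the largest ratios of the 10, 95.9 and 145, with PH means under 1 FPKM that make the ratios imprecise. Klra21 divided by Klra8 was 0.629 and 0.656 in normal blood and 0.391 and 0.482 in PH blood. Outside blood the pair had identical values of 0.0788 FPKM in normal cBEC library 1 and 0.0688 FPKM in 1 normal BEC library, where their overlap in the annotation applies. Eomes, the least abundant of the set in normal blood, was at 6.54 and 10.9 FPKM there and at 0.175 and 0.289 FPKM in PH blood, a ratio of 37.6.

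**Figure D1:**
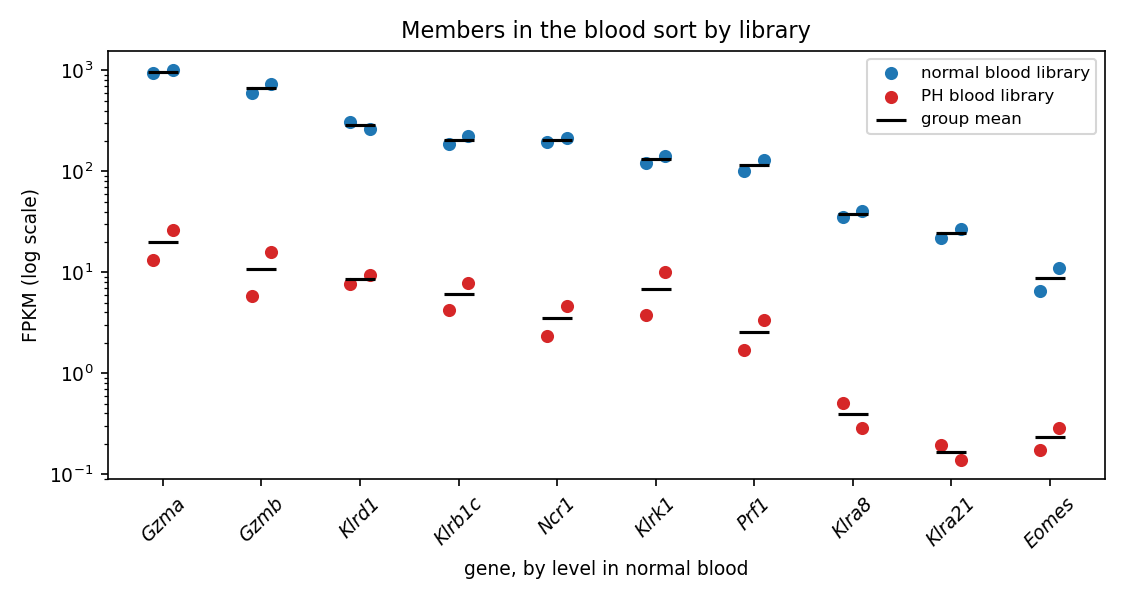
FPKM of the 10 genes in the 4 blood libraries on a log axis, with 1 point per library (blue normal, red PH) and a bar at each group mean. The normal points lie above the PH points for every gene, from Gzma (means 972 and 19.8 FPKM) to Eomes (8.73 and 0.232 FPKM).

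For all 10 genes both PH libraries lay below both normal libraries. Over all 12819 genes tested in blood the same held for 52.0%, and 33.2% had both PH libraries above. Because these values chose the genes, nothing is read from that count. On the log2(FPKM + 1) scale the differences ran from -2.95 for Eomes to -5.94 for Gzmb, with a median of -4.91, against a median of -0.31 over all genes tested. The scale understates the change of a low gene such as Eomes. The order of the 10 levels was nearly kept, with a Spearman rho of 0.95 between normal and PH group means across genes, which are not independent replicates. In the PH group, library 2 exceeded library 1 for 8 of the 10 genes, by up to 2.76 times (Gzmb), and Klra8 and Klra21 were lower there.

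The PH blood sort also held other markers in other amounts, and these values stand beside every blood result. All 10 T cell markers passed the limma test as lower after PH (summed 1664 and 1872 FPKM in normal blood, 36.7 and 74.3 in PH blood), as did all 8 B cell markers (means of the sums 776 and 50.5). Of the 8 monocyte and dendritic cell markers 7 were lower, and of the 8 neutrophil markers 5. All 8 Kupffer cell markers were higher (summed 729 and 1116 against 13226 and 22736 FPKM), and so were all 6 LSEC and all 6 EC markers. Of all genes tested in blood, 39.7% were called lower and 24.3% higher. The summed markers common to leucocytes went from 6481 and 5720 to 1347 and 1828 FPKM. The part of this shift in the values of the NK genes was not tested. In bulk samples fewer cells of a type and less RNA per cell cannot be told apart.

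Set against these sums, the 10 genes together made 1.51 and 1.49 times the T cell marker sum in the normal libraries and 1.08 and 1.06 times in the PH libraries. Set against the leucocyte markers they made 0.387 and 0.487 in normal and 0.0294 and 0.0429 in PH blood. Set against the B cell markers they made 2.73 and 4.39 in normal and 1.28 and 1.12 in PH blood. All 3 proportions were lower in both PH libraries than in both normal libraries. The proportion to leucocyte markers was over 9 times lower after PH. Because values in these libraries chose the 10 genes, nothing is read from these differences. The leucocyte markers are also expressed in Kupffer cells, with sums of 1643 to 1774 FPKM in normal KC and 1942 to 2425 FPKM in PH KC. The median log2 change of the T cell list was -4.77, close to the -4.91 of the 10 genes.

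**Figure D2:**
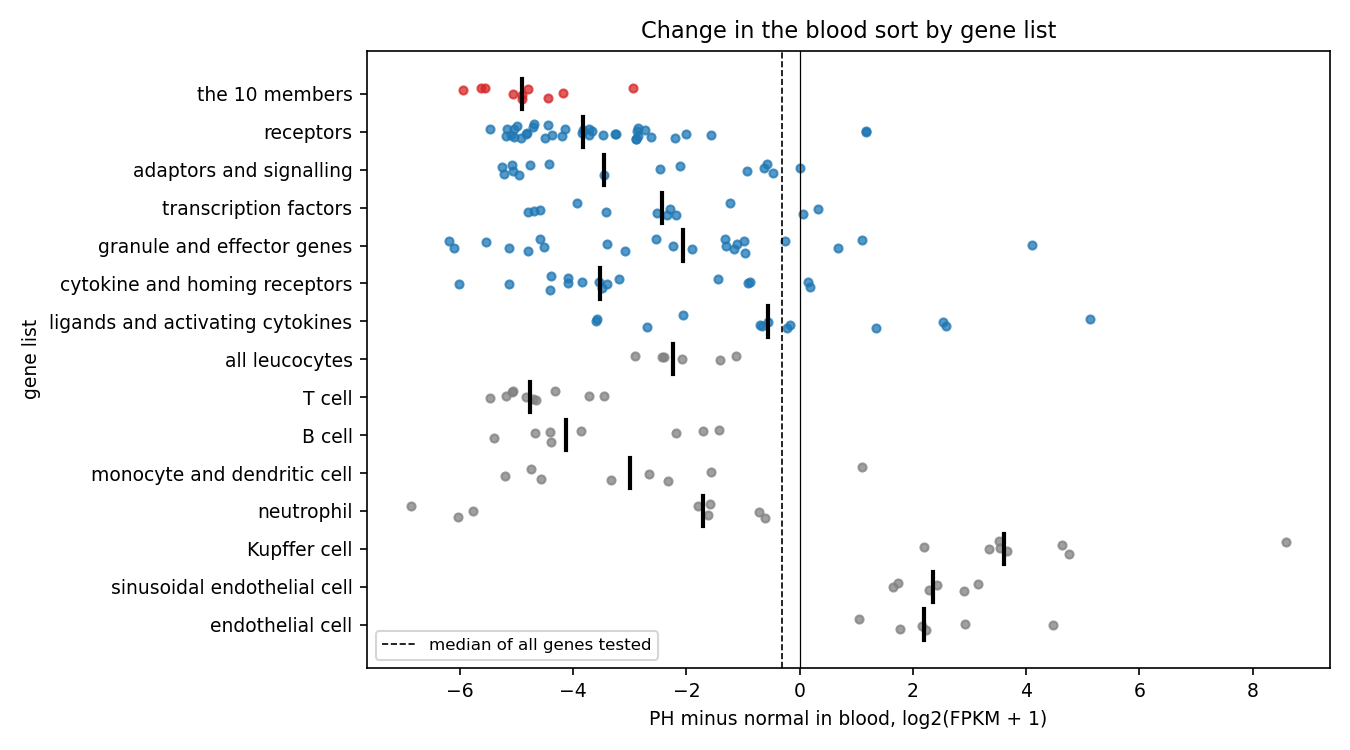
Change in the blood sort, PH minus normal on the log2(FPKM + 1) scale, with 1 point per gene tested and a bar at each list's median. The medians of the 10 genes (red, -4.91), of the other NK pathway lists (blue) and of the T and B cell markers (grey, -4.77 and -4.12) lie left of the dashed median of all genes (-0.31), and the Kupffer and endothelial markers lie right of 0.

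The other genes of the pathway were taken from 6 lists that hold 129 measured genes, none of them among the 10. They were tested in the same blood libraries that chose the 10. Some reached 1 FPKM in blood only in the normal libraries, such as Klrg1 (25.4 and 33.5 against 0.0655 and 0.257 FPKM). Such genes could only be called lower or not called. Nothing is therefore read from the counts of these lists in blood. Of 115 tested in blood, 90 were lower after PH and 8 higher by limma with Benjamini-Hochberg adjustment over all genes, against 39.7% of all genes lower and 24.3% higher. Without either normal blood library 2 were called higher in place of 8.

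Of 37 other receptor genes 35 fell and 2 rose, with a median of -3.83. Klra23, a further Ly49 gene, went from 75.9 and 93.4 to 0.437 and 1.57 FPKM (log2 change -5.47, SE 0.33, limma adjusted p = 0.00086). Its interval holds that of the pseudogene Klra13-ps (means of 80.9 and 0.916 FPKM), so reads of the pair may be shared. Klrb1f, of the same lectin family as Klrb1c, fell by 5.18 on the log2 scale, and Cd226, an activating receptor for nectin-like ligands, by 5.16. Klrc1, the inhibitory NKG2A partner of Klrd1, was at mean levels of 71.1 and 2.33 FPKM. The 2 that rose were Klra2, from 11.8 and 13.0 to 24.7 and 34.7 FPKM, and Fcgr3, the Fc receptor of antibody-dependent killing, from 101 and 119 to 203 and 307 FPKM. Both were also expressed in normal KC, at means of 132 and 487 FPKM. Without normal blood library 1 their limma adjusted p was 0.0992 and 0.139, and without library 2 it was 0.0847 and 0.102. Of the 14 Klra genes in this list 13 fell, and Klra2 was the exception. Some of the 13 overlap in the annotation, so they are not separate measurements.

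Of 15 adaptor and signalling genes tested 11 fell and none rose. Lck, the kinase that starts T cell and NK receptor signalling, went from 433 and 555 to 9.32 and 14.9 FPKM (log2 change -5.26, limma adjusted p = 0.000766). The kinase gene Txk fell by 5.22. The 4 genes not called included Fcer1g, at means of 749 and 756 FPKM, and Tyrobp, the DAP12 adaptor of Ly49H, at 2095 and 1405 FPKM; both adaptors are also used by myeloid cells.

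Of 12 transcription factor genes 9 fell and none rose. Stat4, which relays interleukin-12, fell from 94.3 and 123 to 2.46 and 3.44 FPKM. Tbx21, the T-box partner of Eomes, fell from 103.4 and 102.5 to 2.30 and 3.89 FPKM, and Gata3 fell by 4.59 on the log2 scale. Ets1, Nfil3 and Zeb2 were not called.

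Of 22 granule and effector genes tested 17 fell and 2 rose. Nkg7, a granule membrane protein gene, went from 1266 and 1394 to 10.8 and 27.4 FPKM (log2 change -6.18, limma adjusted p = 0.00101), a larger change on this scale than that of any of the 10. Fasl, the death ligand, fell by 6.10, and the lymphocyte cathepsin gene Ctsw by 5.54. Lamp1, a lysosomal membrane protein exposed on degranulation, rose from 28.1 and 79.4 to 771 and 892 FPKM, and Ctsc, which activates granzymes, rose from 90.7 and 92.1 to 140 and 276 FPKM. Lamp1 and Ctsc were at 885 and 345 FPKM in normal KC, and at 357 and 12.8 FPKM in normal HC. The call of Ctsc was lost without normal blood library 1 or 2 (limma adjusted p = 0.224 and 0.214). Gzmd, Gzme, Gzmf and Gzmg were listed at 0 in all blood libraries.

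Of 16 cytokine and homing receptor genes 13 fell and none rose. Cxcr6, the receptor that holds lymphocytes in the sinusoids, went from 594 and 743 to 6.65 and 13.0 FPKM (log2 change -6.01, limma adjusted p = 0.000818). Il2rb, the shared interleukin-2 and interleukin-15 receptor chain, fell by 5.12. The call of Il2rb was lost without normal blood library 1 (limma adjusted p = 0.0521) or 2 (0.0506).

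Of 13 ligand and activating cytokine genes tested, 5 were lower and 4 higher. These shares were near those of all genes (39.7% lower and 24.3% higher). H60b, a ligand of NKG2D, fell from 12.8 and 16.3 to 0.273 and 0.322 FPKM. Clec2i, a ligand of Klrb1-type and related lectin receptors, fell by 3.60, with limma adjusted p = 0.0559 and 0.0508 when either normal blood library was left out. Il12a, an interleukin-12 subunit gene, fell by 2.70. Clec2d, the ligand of an inhibitory Klrb1 receptor, rose from 2.87 and 1.87 to 141 and 95.3 FPKM, and Il18 rose from 11.2 and 8.77 to 49.8 and 82.5 FPKM. In normal KC these 2 genes were at 124 and 66.7 FPKM. Clec2d was at means of 61.9 FPKM (NPD) to 273 FPKM (EC) in all normal populations other than blood. The mean of Il18 in normal NPD was 143 FPKM. The Il18 call was lost without normal blood library 1 or 2 (limma adjusted p = 0.0555 and 0.0581).

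The set was also placed beside its genomic neighbours in the NK gene complex. In the 1.61 Mb from Klrb1c to Klra1 the table has 55 symbols, of which 45 were tested in blood. All 25 tested Klr genes other than the 5 of the set were lower after PH by limma, beside the 39.7% of all genes. Many of the 25 passed the filter only through normal blood, such as Klra14-ps (means of 15.6 and 0 FPKM). Such genes could only be called lower or not called. The same libraries chose the set, so nothing is read from this count. Some intervals of the 25 overlap, such as those of Klra6 and Klra19 (means of 7.41 and 7.39 FPKM in normal blood). Reads may be shared between them, so the 25 are not separate measurements. Klra2 lies outside this window and is not among the 25. The 15 tested genes with other names were mixed, with 7 lower, 5 higher and 3 not called. Cd69, an early activation antigen, was at mean levels of 114 and 3.41 FPKM, whereas Clec2d and Clec1b rose (Clec1b from a mean of 25.0 to 371 FPKM). Clec1b was at 476 FPKM in normal KC.

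**Figure D3:**
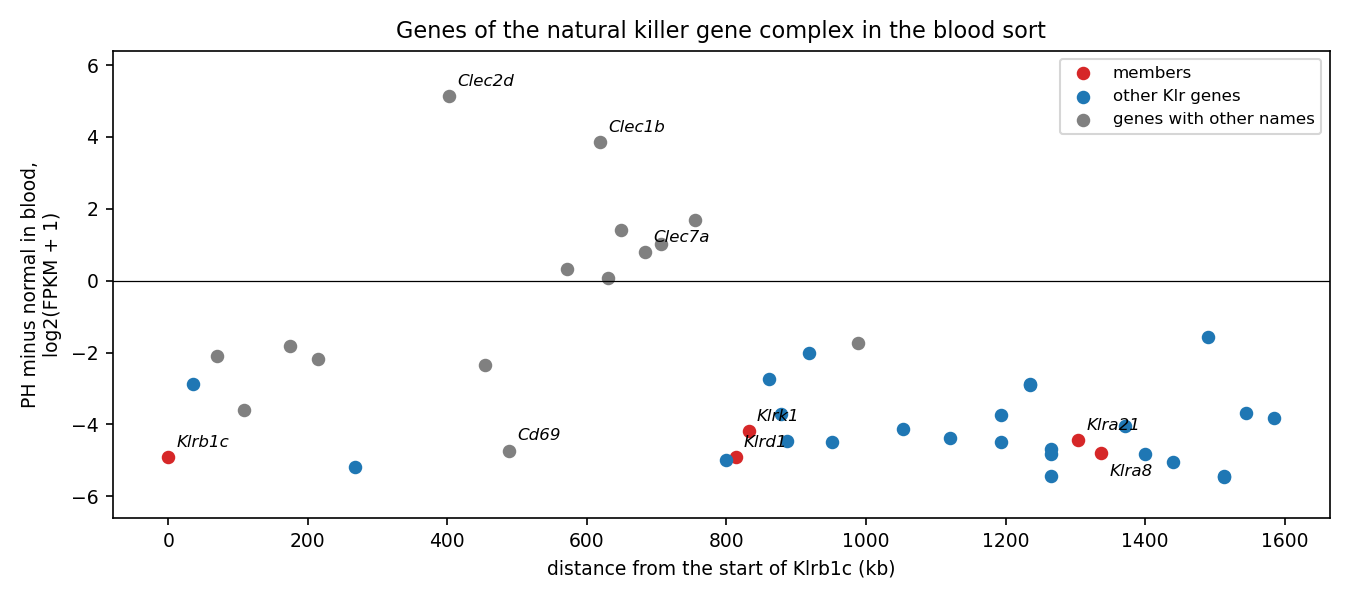
Change in the blood sort for the tested genes of the NK gene complex (vertical axis, PH minus normal, log2(FPKM + 1)) by distance from the start of Klrb1c in kb. Genes of the set (red) and other Klr genes (blue) all lie below 0, and 8 of the 15 genes with other names (grey) lie above it, led by Clec2d at 5.13.

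The genes with the most similar profile over the 20 group means were found by correlation. Among 7037 candidate symbols the highest Pearson correlation with the mean profile of the 10 genes was that of Ipcef1 (0.998), followed by Klre1, Cd209a, Kcna3, Gpr171, Cd8a, Bcl11a and Btla (0.995). A correlation above 0.99 was found for 30 symbols. For single genes the nearest symbols included Klra15 for Klra8, Cd3e for Klrb1c, Cd6 for Ncr1, Gzmb for Gzma and Gpr171 for Gzmb. Cd3e, Cd6 and Cd8a are T cell genes, and Cd209a is in the monocyte and dendritic cell list. These correlations are descriptions over 20 points that share their libraries, and the blood groups set most of them.

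Outside blood the 10 genes were low. Of their 510 values in the other 51 libraries 338 were listed at 0 and 26 reached 1 FPKM. Transcripts abundant in hepatocytes are often at exactly 0 in this table, so a 0 is given here as listed at 0. Normal blood held the highest level of all 10 genes, and its lowest value exceeded every value of every other group. The same held for 17.9% of the 12819 genes tested in blood, and nothing is read from this count because blood values chose the genes. PH blood came next by its mean for 9 of the 10, and Klrk1 was the exception. For Prf1, PH blood (1.70 and 3.40 FPKM) overlapped with normal HSC (0 and 2.84 FPKM).

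**Figure D4:**
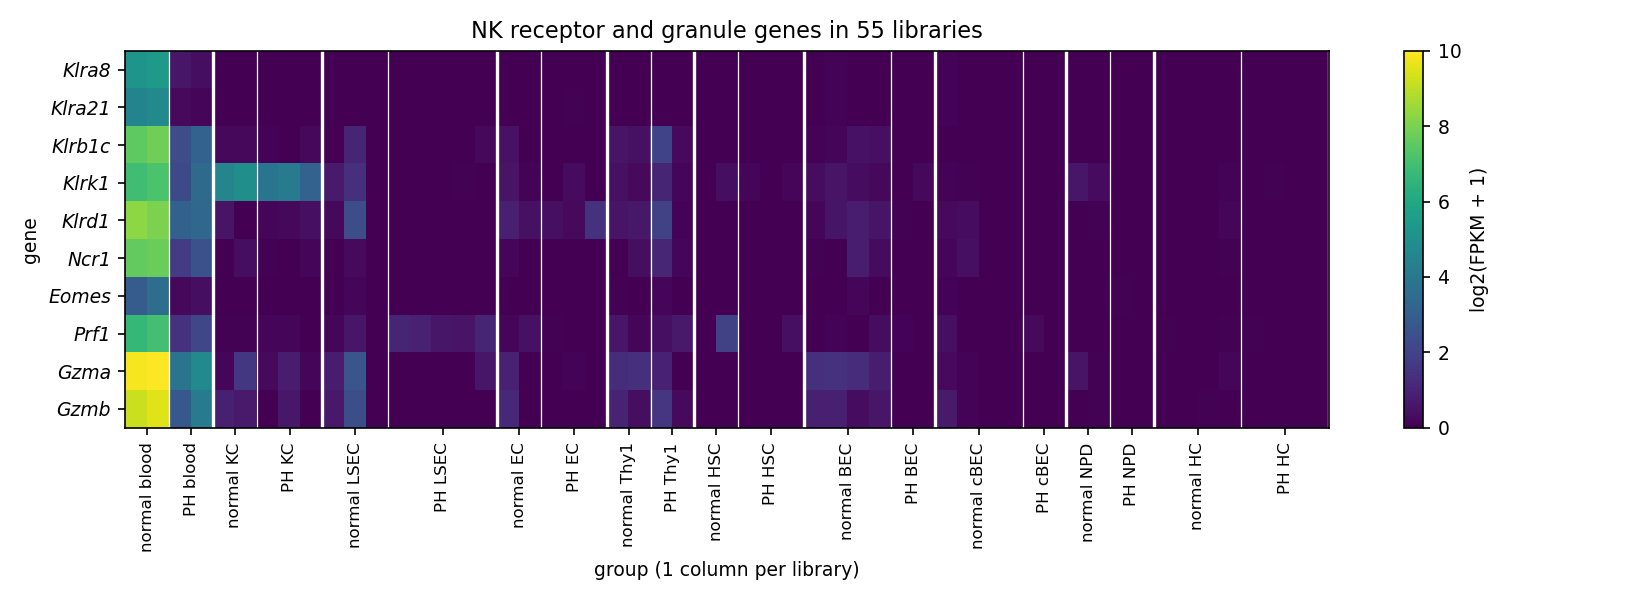
Level of the 10 genes in the 55 libraries as log2(FPKM + 1), with 1 column per library and groups split by white lines. Normal blood is bright in all rows, PH blood is dim, and among the other groups Klrk1 in KC stands out (7.89 to 30.2 FPKM).

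Klrk1 was the exception to this pattern. It was at 22.7 and 30.2 FPKM in normal KC and at 13.8, 15.8 and 7.89 FPKM in PH KC. Klrd1, its neighbour in the complex, was at 0.445 and 0 FPKM in normal KC and at 0.126, 0.159 and 0.341 FPKM in PH KC. Klrk1 was therefore over 20 times Klrd1 in each KC library where Klrd1 was above 0, while in normal blood it was 0.390 and 0.543 of Klrd1. In PH blood the ratio was 0.492 and 1.07. The 9 genes without Klrk1 summed to 0.534 to 3.17 FPKM over the 5 KC libraries, T cell markers to 5.72 to 8.89 FPKM and Kupffer cell markers to 18366 to 37796 FPKM. Klra8, Klra21 and Eomes were listed at 0 in all 5.

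The KC libraries did not choose the set, and Klrk1 could be tested there. It was lower after PH (log2 change -1.06, SE 0.31, limma adjusted p = 0.0455), in a contrast in which 20.1% of all genes were called lower. The call was lost without normal library 1 (limma adjusted p = 0.141), normal library 2 (0.239) or PH library 1 (0.0797), and with no filter on low values (0.0788). Kupffer cell markers summed to 20148 and 18366 FPKM in normal KC and to 36534, 37582 and 37796 FPKM in PH KC. LSEC markers summed to 3329 and 4606 FPKM in normal KC and to between 278 and 509 FPKM in PH KC, and EC markers to 1039 and 1273 against 303 to 539 FPKM. The part of these markers in the KC results was not tested. Klrk1 itself did not exceed 1.56 FPKM in any LSEC or EC library.

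**Figure D5:**
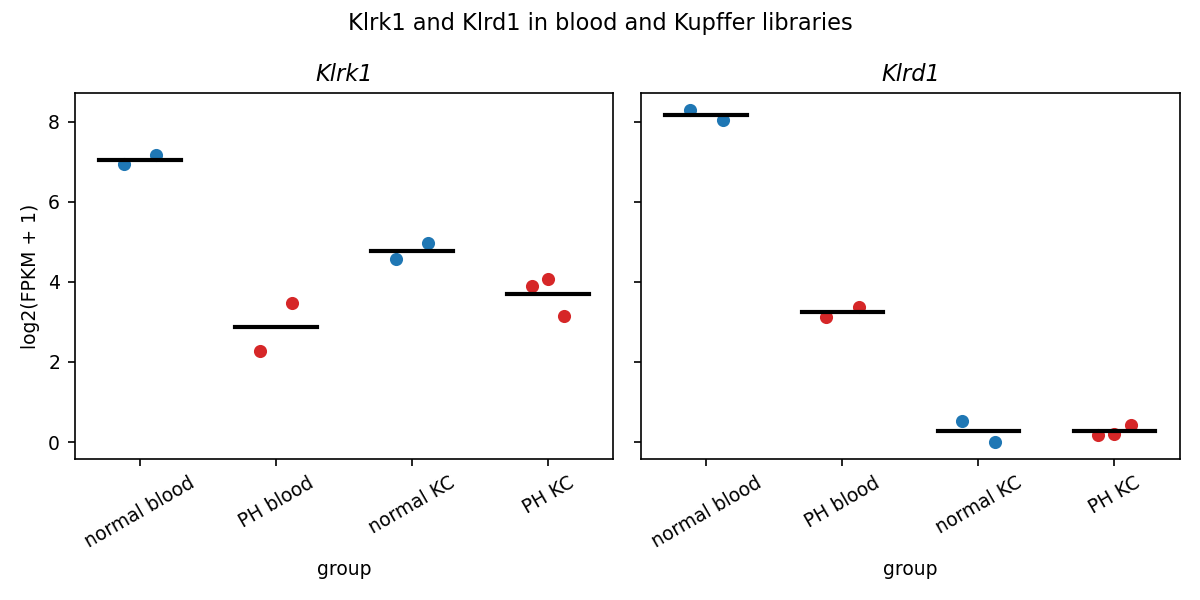
Klrk1 (left) and Klrd1 (right) as log2(FPKM + 1) in each blood and KC library, with a bar at the mean of the log values. Both are high in normal blood, and in KC Klrk1 stays between 7.89 and 30.2 FPKM whereas Klrd1 does not exceed 0.445 FPKM.

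Of the 55 other NK pathway genes tested in KC 15 fell and 5 rose by limma, in a contrast that called 20.1% of all genes lower and 16.7% higher, so the total was near the background. Klrc1 fell from 5.15 and 5.85 FPKM to between 0.334 and 0.797 FPKM (log2 change -2.02, limma adjusted p = 0.00243), and Klra2 from 125 and 138 to between 50.3 and 70.9 FPKM (both chosen after their values were seen). Clec2d fell from 123 and 126 FPKM to between 39.3 and 43.5 FPKM (log2 change -1.59, limma adjusted p = 0.00139), beside the fall in LSEC and EC marker sums. It was at means of 175 FPKM in normal LSEC and 273 FPKM in normal EC. Ets1, a transcription factor of lymphoid development, fell by 2.30. Il18, a cytokine that activates NK cells, rose from 60.6 and 72.7 FPKM to between 146 and 176 FPKM (log2 change 1.26, limma adjusted p = 0.00283). Vav1, an exchange factor in receptor signalling, rose by 0.85. In a single fit of all 20 groups the calls of Il18 (limma adjusted p = 0.0949) and Vav1 (0.201) were lost. The number of called NK genes, Klrk1 included, was 21 with all libraries, 9 and 8 without normal library 1 or 2, 13 without PH library 1 and 39 without PH library 3, whose population comes from its title only.

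In LSEC, 1 normal library carried most of the signal. Library 2 had 5.27 FPKM of Gzma, 4.28 of Gzmb, 4.21 of Klrd1, 1.56 of Klrk1 and 1.02 of Klrb1c. Library 1 had 0.758, 0.602, 0.155, 0.634 and 0 FPKM of the same genes, and library 3 had all 10 genes listed at 0. T cell markers summed to 20.6 FPKM in library 2, 1.61 in library 1 and 0 in library 3, and their part in these values was not tested. Without library 2 the highest normal LSEC value of the 10 genes was 0.758 FPKM. In PH LSEC the pattern was different: Prf1 was at 1.02, 0.902, 0.502, 0.460 and 1.05 FPKM, while Klra8, Klra21, Klrd1, Ncr1 and Gzmb were listed at 0 in all 5. Prf1 in normal LSEC was at 0.103, 0.512 and 0 FPKM, which overlaps with PH, and it did not pass the filter on low values.

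In Thy1 cells, PH library 1 stood apart from library 2. Klrb1c was at 3.03 and 0.192 FPKM, Klrd1 at 2.83 and 0.0807, Gzmb at 1.99 and 0.202 and Ncr1 at 1.09 and 0.141 in the 2 PH libraries. T cell markers summed to 29.7 and 2.67 FPKM in the same order. Both normal Thy1 libraries had Gzma, at 1.504 and 1.546 FPKM, against 0.908 and 0 FPKM after PH, a difference that did not pass the test (log2 change -0.87, limma adjusted p = 0.355).

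In BEC, Gzma was at 0.738, 1.41, 1.58 and 1.68 FPKM in the 4 normal libraries and listed at 0 in both PH libraries. The difference did not pass the test (log2 change -1.22, limma adjusted p = 0.0768). Klrk1, Klrd1, Klrb1c and Gzmb were also above 0 in all 4 normal libraries, at up to 0.858 FPKM, and in PH BEC the highest value of any of the 10 was 0.162 FPKM. Leucocyte markers summed to 18.4 to 49.6 FPKM in normal BEC and to 0.308 to 0.430 FPKM in PH BEC. Kupffer cell markers summed to 93.0 to 371 FPKM against 0.622 to 4.41 FPKM, and B cell markers to 4.09 to 25.2 FPKM against 0.0437 to 0.0906 FPKM. Their part in the BEC results was not tested. Of the other NK genes 9 of 47 fell and none rose, against 1.57% and 0.233% of all genes, among them Fcer1g (log2 change -3.33, limma adjusted p = 0.0130) and Ctsc (-2.70, 0.00541). Both are also myeloid genes, and without either PH library none of the 9 was called.

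In the remaining populations none of the 10 genes passed the filter on low values. In EC Klrd1 was at 0.843 and 0.351 FPKM in normal and at 0.312, 0.195 and 1.75 FPKM in PH libraries, with overlap. The value of 2.84 FPKM of Prf1 in normal HSC library 2 stood alone, with 0 in library 1 and 0 to 0.345 in PH HSC. Hepatocytes had at most 0.1 FPKM of any of the 10.

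Tests on the other NK genes called 2 of 22 in HC, 11 of 42 in NPD and 5 of 35 in LSEC, and none of those tested in cBEC, EC, Thy1 or HSC, where 6, 8, 8 and 15 had an unadjusted limma p under 0.05. Those 4 contrasts called few genes of any kind, with 0.0227% of all genes lower and 0.0454% higher in cBEC, 0.0249% higher in EC, 0.00747% higher in Thy1 and 0.00853% higher in HSC, and none lower in the last 3. In HC H2-T23, the gene of the ligand Qa-1, fell by 0.91 and Icam1, an adhesion ligand, rose by 1.27 (both limma adjusted p = 0.0275; 4.41% of all genes lower and 1.78% higher), and both calls were lost without any 1 of the 4 normal libraries. In NPD Fcer1g and Tyrobp fell by 3.25 and 2.86, whereas Cd244, a receptor of the SLAM family, rose by 2.04 and Pvr, a ligand of Cd226, by 1.22, with 5 lower and 6 higher in all (5.51% and 9.65% of all genes). Kupffer cell markers summed to 146 and 326 FPKM in normal NPD and to 10.3 and 14.4 FPKM in PH NPD, and leucocyte markers to 19.4 and 35.7 against 2.25 and 4.43 FPKM; their part in the NPD results was not tested. None of the 11 was called without PH NPD library 1 or 2, and 22 genes were called without normal library 2. In LSEC Il2rg, the common cytokine receptor chain, rose from between 54.8 and 79.2 FPKM to between 117 and 220 FPKM (log2 change 1.26, limma adjusted p = 0.0109). Srgn, the granule proteoglycan gene, rose by 1.04 and Unc13d, a granule priming factor, fell by 1.24. In that contrast 4.31% of all genes were lower and 4.15% higher. None of the 5 was called without normal LSEC library 1, 2 were called without normal library 2 or PH library 1 or 4, 3 without PH library 5, and 15 without normal library 3.

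Ligand genes of NKG2D were found in hepatocytes and normal stellate cells. Raet1d was at 12.6 ± 4.39 FPKM (SD, n = 4) in normal HC and at 12.4 ± 4.74 FPKM (SD, n = 4) in PH HC, and at 10.2 and 12.7 FPKM in normal HSC. In PH HSC it was at 0 to 2.94 FPKM, and the difference did not pass the test (log2 change -2.38, limma adjusted p = 0.498). The limma F test described below, over the populations other than blood, called Raet1d (limma adjusted p = 0.00158). That test does not show which population differed. Raet1a was at 9.93 ± 3.13 FPKM (SD, n = 4) in normal HC and at 9.78 ± 3.98 FPKM (SD, n = 4) in PH HC. The Raet1 genes are near-identical copies, so reads may be split between them. Il15, the survival cytokine of NK cells, was at means of 32.1 FPKM in normal KC and 16.2 FPKM in PH KC, and this difference did not pass the test (limma adjusted p = 0.0805).

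Over the 9 populations other than blood, a limma F test asked whether the response to PH differed between them. None of the 6 genes of the set that passed its filter was called, beside 25.9% of all 16194 genes. The lowest values were those of Klrk1 (limma adjusted p = 0.0551) and Prf1 (0.119), which are the 2 with an unadjusted p under 0.05. With 1 library left out at a time, 45 of the 51 fits called none of the 6, and the others called 1 to 3: 3 without normal LSEC library 3, 2 without PH Thy1 library 2, and 1 without normal LSEC library 2, either normal HSC library or PH KC library 2. Klra8, Klra21, Ncr1 and Eomes were not tested here because they did not reach the filter.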

How the data were processed

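The authors deposited 1 table of FPKM values for all 55 libraries, with RefSeq rows on mm9. Per the submitters' processing notes, CASAVA 1.8.2, Bowtie 1.0.0 and mm9 were used, with no roles given; the counting step is not given in the sources used here. FPKM is the unit named by the table, and read depth is unknown, so no counting interval is given. Of 36141 rows, the row with the highest mean was kept for each of 24478 symbols. Table starts count from 0 and are printed from 1.

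PH and normal libraries of each population were compared on log2(FPKM + 1) with limma 3.58.1 in R 4.3.3 (trended, robust, two-sided), with Benjamini-Hochberg adjustment over all genes that reached 1 FPKM in as many libraries as the smaller group has. A gene was called at an adjusted p under 0.05. The code was tested on simulated data.

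The genes and lists were chosen with earlier results of these data known. Named genes are the 10 of the set, and of the lists the 3 largest called falls and 2 largest rises per list in blood, and the 2 smallest adjusted p per direction elsewhere; the nearest genes by profile follow a fixed rule. Some genes the rule names are not reported here. Others were named after their values were seen. Alternatives were the pseudocount (0.1), no filter, quantile and upper-quartile scaling, row means, a single fit, the replicate block and each library left out. PH cBEC replicate 1 carries a normal tag and was kept as titled. PH KC replicate 3 has no cell type tag and was placed by its title.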

Additional observations from a re-analysis of the deposited data

Results flagged for a closer look

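Gzmb in normal cBEC was 0.663 FPKM in 1 of the 4 libraries and 0 to 0.066 FPKM in the others, a gap that passed Dixon's 95% limit. Gzma in PH LSEC was 0.511 FPKM in library 5 and listed at 0 in the other 4. The limit is set to pass 1 in 20 values by chance, which would be 0.55 of the 11 examined here. That rate assumes values without ties. Where all other libraries are listed at 0, any single value above 0 passes. Nothing is therefore read from the 2 that stood out. For 27 of 84 other NK genes the response to PH differed among the 9 populations other than blood (limma F test with Benjamini-Hochberg adjustment), beside 25.9% of all genes. They include Klrc1 (limma adjusted p = 0.000148), Cd244 (4.4e-05) and H60b (1.27e-06). The Raet1 genes, near-identical copies that may share reads, are also among the 27 and are not separate measurements. The count was not far above the share of all genes, and nothing is read from it.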

How the results depend on the processing

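No result changed direction under any alternative run. The median change of the 10 genes in blood was -5.59 with a pseudocount of 0.1 FPKM and -5.16 to -4.74 with 1 library left out. In blood the count of other NK genes was 63 to 91 lower and 2 to 10 higher with 1 library left out, and 5 higher in a single fit of all 20 groups. That single fit called 3 NK genes in cBEC, 2 in EC, 14 in LSEC, 11 in Thy1, 12 in KC and 20 in HSC. In BEC 9 genes became 17 with a pseudocount of 0.1, 1 with no filter, 3 with quantile scaling and 15 with the replicate block. No filter gave 1 in HC, 5 in NPD and 3 in LSEC, and quantile or upper-quartile scaling gave 1 in HC. Deviations of same-numbered normal and PH libraries from their group means correlated at -0.65 to 0.50. Groups this small cannot show whether the libraries were paired, and the labels do not say. The replicate block gave 0 in HC, 17 in NPD, 0 in LSEC, 3 in Thy1 and 37 in KC. For Klrk1 in KC the replicate block gave -0.79 (limma adjusted p = 0.00491). Leaving out 1 library gave 0 to 1 in cBEC, 0 to 11 in BEC, 0 to 3 in HC, 0 to 22 in NPD, 0 to 15 in LSEC, 8 to 39 in KC and 0 in EC, Thy1 and HSC. For the F test it gave 0 to 3 of the 10 genes and 24 to 39 of the others. The cause of these shifts was not tested. Where an arm is left with 1 library, that library is assumed to vary like the other group. Of the 39 named calls of list genes, 19 were lost under at least 1 alternative. The single fit lost Klra2 (limma adjusted p = 0.0696), Fcgr3 (0.314) and Ctsc (0.0868) in blood, Tyrobp in NPD (0.196) and Srgn in LSEC (0.452). Groups of 2 or 3 limit precision, and values near 0 FPKM cannot be told from noise without depth.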
